A study of Mus musculus with 36 samples.

Results

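Whole-brain RNA of adult female Chd8+/S62X mice (HT) and female wild-type mice (WT) at P80 was compared in 6 libraries, 3 mice of each genotype, out of 36 libraries in the study. The HT mice carried 1 copy of the S62X allele, a human autism mutation that puts a stop codon early in Chd8, and the WT mice were female mice of the same C57BL/6 strain and age with no mutant allele. The allele was present in every cell from conception, so that adult brain values can hold both direct and developmental differences, and whole-brain RNA cannot separate fewer cells of a type from less RNA per cell. The other 30 libraries are males at P80 and both sexes at P0 and P25, 3 mice for each age, sex and genotype. The columns of the deposited table name the oldest age P56, whereas the sample titles, the age labels and the methods give P80, which is used here. Of the 29799 genes in the table, the 18167 genes with a mean normalized value of at least 10 over the 6 libraries were tested.

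CHD8 is a chromatin remodeler, an ATP-driven enzyme that moves nucleosomes, and it binds near the promoters of many expressed genes, chromatin and autism risk genes among them. It is one of the genes in which protein-truncating mutations have most often been found in people with autism, and it is also known for restraining Wnt/beta-catenin and p53 signalling. In a heterozygote the normal allele still makes full-length protein.

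The mutated codon is shown because its position tells where the protein is cut. In the GRCm38 reference genome with GENCODE annotation, serine 62 of the 2582 codons lies on the minus strand at chr14:52237387-52237389, in exon 1 of 37 or exon 2 of 38 of the full-length coding transcripts. The coding sequence from codon 52 to codon 72, at chr14:52237357-52237419, is given as the reference allele, 5′ to 3′ along the gene, with codon 62 in capitals. The nucleotide change behind S62X is not given in the sources used here.
Chd8 codons 52 to 72: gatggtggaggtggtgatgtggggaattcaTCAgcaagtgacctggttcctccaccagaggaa

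The 6 libraries were of like size after the authors' normalization but not all of like tissue. The sums of normalized values were 35274764, 35085611 and 35043081 in HT replicates 1, 2 and 3 and 35283838, 35328690 and 35077133 in WT replicates 1, 2 and 3. Normalized sums do not show the number of reads, so the depth of a single library is unknown. Correlations of log2 values between libraries, across the genes tested, ran from 0.979 to 0.990, and HT replicate 3 had the lowest mean correlation with the other libraries (0.981).

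HT replicates 2 and 3 held pituitary RNA, and HT replicate 3 also held RNA of nasal mucosa genes and more globin RNA. Prl, which encodes the hormone prolactin, had normalized values of 7.22, 33542 and 11013 in HT replicates 1, 2 and 3 and of 33.7, 23.7 and 28.6 in WT replicates 1, 2 and 3. Gh, growth hormone, had 12.7, 29150 and 12320 in the HT and 25.7, 26.5 and 29.8 in the WT replicates. These 2 HT libraries stood far above the other 4, and HT replicate 1 was below all 3 WT libraries for both genes. For some results, values without 1 or both of these libraries are also given below, and the other results rest on all libraries.

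Only 7 of the 18167 genes (0.0385%) passed an adjusted p of 0.05 between HT and WT females (limma on log2 of the value plus 1, Benjamini-Hochberg adjustment). Chd8 rose in HT mice, and Usp11, Entpd4, Gm16867, Mphosph9 and Mon2 fell, and the pseudogene Gm47924 had values in HT mice and was listed at 0 in WT mice. At an unadjusted p under 0.05 there were 959 genes higher (5.28%) and 1098 genes lower (6.04%) in HT mice. The typical difference was small, with a median absolute log2 fold change of 0.090 against a median standard error of 0.087. The count of 7 was not stable to the libraries used. It was 14, 0 and 2 without HT replicates 1, 2 and 3 and 4, 1 and 1 without WT replicates 1, 2 and 3. Gm47924 was the gene left without WT replicate 2 or 3, and with WT values all at 0 its p is not a fair test.

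Chd8 itself had normalized values of 4582, 4964 and 4737 in HT replicates 1, 2 and 3 and of 3653, 3862 and 3607 in WT replicates 1, 2 and 3. Every HT value was above every WT value. Chd8 rose by 0.36 on the log2 scale, or 1.28-fold, with a standard error of 0.046 (limma adjusted p = 0.0405, n = 3 and 3). With any 1 library left out the log2 fold change was 0.33 to 0.39, and the adjusted p was 0.0455 without HT replicate 1 and above 0.05, up to 0.225, without any of the other 5. With 3 libraries against 3, an exact two-sided permutation test of a single gene cannot give a p below 0.1, which is the value Chd8 had. The table adds up the RNA of both alleles, so the value does not check the genotype labels, and it says nothing of CHD8 protein.

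Usp11 (ENSMUSG00000031066) encodes a deubiquitinase and lies on chrX:20703906-20720539, plus strand, in GRCm38. Its normalized values were 3986, 3950 and 3928 in the HT and 4992, 5046 and 4992 in the WT replicates. The groups were far apart and each was tight, with SDs of 29.0 and 31.2. Usp11 fell by 0.34 on the log2 scale (standard error 0.036, limma adjusted p = 0.0252).

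Entpd4 (ENSMUSG00000095463) encodes a nucleotidase of the Golgi and lysosome membrane and lies on chr14:69337174-69367270, plus strand. Its values were 3890, 3881 and 3628 in the HT and 5352, 4909 and 5024 in the WT replicates, without overlap, and it fell by 0.42 (standard error 0.047, limma adjusted p = 0.0328). Gm16867, a predicted protein-coding gene on the minus strand at chr14:69363504-69503362, overlaps the end of Entpd4. It had 252, 370 and 327 in the HT and 623, 746 and 794 in the WT replicates, so that the highest HT value was well under the lowest WT value. Gm16867 fell by 1.20 on the log2 scale (standard error 0.14, limma adjusted p = 0.0333). The library kit does not mark strand, so reads from the overlap of these genes cannot be told apart by strand. Their changes may not be independent of each other, and the sharing of reads was not tested.

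Mphosph9 and Mon2 fell as well. Mphosph9 (chr5:124250959-124327972, minus strand), which encodes a centriole protein with a part in the assembly of primary cilia, had 1145, 991 and 972 in the HT and 1487, 1576 and 1563 in the WT replicates. It fell by 0.58 (standard error 0.069, limma adjusted p = 0.0333). Mon2 (chr10:122992060-123076505, minus strand) encodes a regulator of traffic between endosomes and the Golgi and had 2690, 2896 and 2815 in the HT and 3543, 3879 and 3599 in the WT replicates. It fell by 0.39 (standard error 0.049, limma adjusted p = 0.0405). In both genes the lowest WT library was above the highest HT library.

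Gm47924, a processed pseudogene at chr10:25627573-25628874 on the minus strand, had 48.1, 51.4 and 92.9 in the HT replicates and was listed at 0 in all 3 WT replicates (limma adjusted p = 0.00436). It entered the test only through the HT group, and the WT group has no spread, so its p is not a fair test and its values are given as a description. No fold change is given against a group at 0. It lies inside the antisense gene Gm29571 on the other strand, and reads of a processed pseudogene can also come from its parent gene, so its identity as the source is uncertain.

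**Figure D1:**
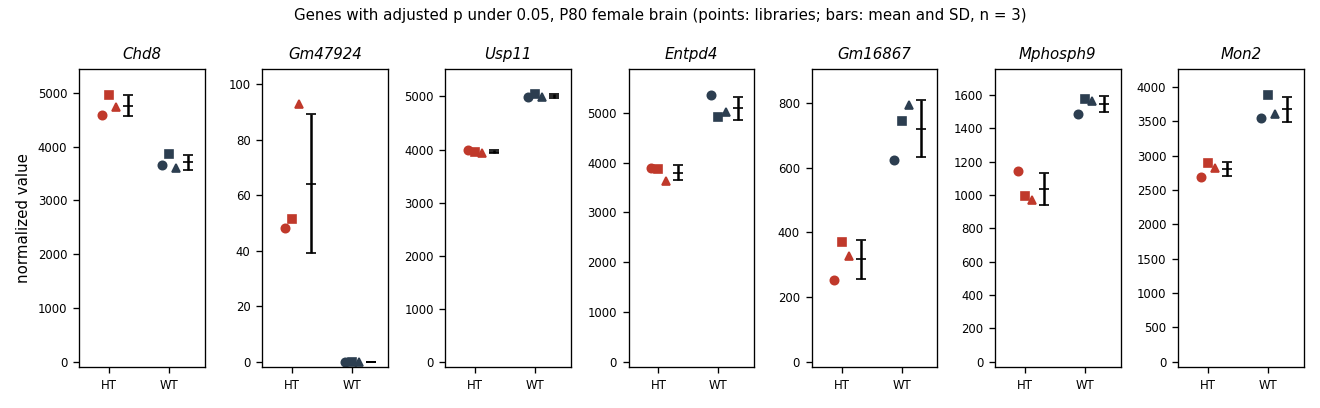
Normalized values (vertical axes, each from 0) of the 7 genes with an adjusted p under 0.05 in P80 females; each point is a library (circle, square and triangle for replicates 1, 2 and 3) and bars give the mean and SD, n = 3. HT and WT points do not overlap in any of the 7 panels, and Gm47924 is listed at 0 in the 3 WT libraries.

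Values of the same 7 genes in P80 males and P25 females came from other mice. Chd8 was 4948 ± 282 in HT and 3563 ± 184 in WT males at P80 (SD, n = 3), higher by 0.47 on the log2 scale with a standard error of 0.059 (limma adjusted p = 0.0410). In females at P25 it was 6298 ± 424 in HT and 4326 ± 342 in WT mice (SD, n = 3), and the difference of 0.54 on the log2 scale, with a standard error of 0.066, did not pass (limma adjusted p = 0.0723). Usp11 was 3791 ± 36.2 in HT and 4672 ± 219 in WT males at P80, and Entpd4 was 3733 ± 6.03 against 4885 ± 102 there (SD, n = 3). Chd8, Usp11, Entpd4 and Gm16867 had HT and WT values without overlap, in the direction of the P80 females, in both of these other comparisons.

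Mphosph9 and Mon2 did not show the P80 female pattern in the other groups. Mphosph9 values of HT and WT mice overlapped in P80 males (log2 fold change -0.04) and in P25 females (-0.18). Mon2 values overlapped in P80 males (-0.12), and in P25 females the HT replicates had 3228, 3787 and 3573 against 3137, 3128 and 2976 in the WT replicates, all HT values above all WT values. Gm47924 was listed at 112, 0 and 32.5 in HT males at P80 and at 0 in WT males at P80 and in all 6 P25 females.

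The difference between comparisons was itself tested with interaction terms over 12 libraries. Between the sexes at P80, 0 of 18153 genes (0%) passed an adjusted p of 0.05 in limma, with 895 at an unadjusted p under 0.05 and a smallest adjusted p of 0.512 (Wdr63). Between P25 and P80 in females, 2 of 18227 genes (0.011%) passed, Mon2 with an interaction of -0.58 (standard error 0.081, limma adjusted p = 0.0432) and Gm47924 (0.0432), whose values are 0 in 9 of the 12 libraries, so that its p is not a fair test. Without 1 library, Mon2 passed in 1 of 12 fits, without P25 HT replicate 1, and Gm47924 in 0, and both lost their call under 7 other settings, among them the fit without P80 HT replicates 2 and 3. At an unadjusted p under 0.05 there were 1075 genes. For Mphosph9 the interaction with sex was -0.54 (limma adjusted p = 0.905), so that its difference between females and males at P80 did not pass the test. Both interaction tests also hold the pituitary-bearing libraries. Of the P80 males, HT replicate 2 had pituitary RNA as well, with Gh at 160, 2640.4 and 4.44 in the HT and 10.7, 112.6 and 3.36 in the WT replicates and Prl at 37.6, 607 and 1.15 in the HT and 3.62, 22.7 and 1.14 in the WT replicates.

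Below the threshold, the leading genes encode secreted, mitochondrial, glial and signalling proteins with no single theme. Nbl1, a secreted antagonist of bone morphogenetic proteins, had 1930, 1915 and 1977 in the HT and 1549, 1525 and 1571 in the WT replicates, a log2 fold change of 0.33 (limma adjusted p = 0.0550). The mitochondrially encoded cytochrome oxidase subunit mt-Co2 had 64664, 78115 and 57429 in the HT and 42835, 29377 and 31855 in the WT replicates, a log2 fold change of 0.95 (adjusted p = 0.0807). HT and WT values did not overlap for either gene. In P80 males mt-Co2 varied widely, with 34651 ± 22943 in HT and 86591 ± 81107 in WT mice (SD, n = 3). The log2 fold change there was -1.02 with a standard error of 0.61 and did not pass the test. The interaction with sex was not past the threshold for any gene.

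The other genes chosen by rank with higher values in HT mice, all with an adjusted p above 0.25 in limma, were Rlbp1, Ccdc62, Crlf2, Rida, mt-Atp6, Dbi and Dpm3. Rlbp1, a retinaldehyde carrier of glia, had 557, 529 and 546 in the HT and 423, 389 and 405 in the WT replicates (log2 fold change 0.42). Dbi, an acyl-CoA binding protein that also acts on GABA-A receptors, had 4622, 4398 and 4678 in the HT and 3602, 4035 and 3740 in the WT replicates (0.27). Log2 fold changes were 0.80 for Ccdc62, 0.43 for the cytokine receptor Crlf2, 0.38 for the deaminase Rida, 0.54 for the ATP synthase subunit mt-Atp6 and 0.46 for Dpm3, a subunit of an enzyme for protein mannosylation.

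Those with lower values included Faap100, Stat6, Nacad, Cd4 and Adgrl1, each at a limma adjusted p of 0.297. Adgrl1, a presynaptic adhesion receptor of the latrophilin family, had 20071, 20434 and 19484 in the HT and 23370, 22211 and 22833 in the WT replicates (log2 fold change -0.19). Stat6, a transcription factor of interleukin-4 signalling, stood at -0.50, Cd4 at -0.48, Faap100, a protein of the Fanconi anaemia DNA repair complex, at -0.39 and Nacad at -0.36. None of these genes is a change by the test used.

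Because so few single genes passed, the gene groups are described by how many members had HT and WT values without overlap. Over all genes tested, all 3 HT values were above all 3 WT values for 1567 genes (8.63%) and below them for 1623 (8.93%), and the median log2 fold change was -0.01. The lists are general-knowledge lists of functions and cell types, 42 in all, and 1 list of nasal mucosa genes was added after the values were seen. None of the lists held a gene past the adjusted p, and Chd8 itself was not in the autism risk or chromatin list.

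The ribosome and the energy metabolism of mitochondria were the groups with most members higher in HT females. Of 79 proteins of the cytosolic ribosome, 47 (59.5%) were higher without overlap and 0 were lower, 77 had a positive log2 fold change and the median was 0.11. Rps18, a small-subunit protein, had 4116, 4052 and 4009 in the HT and 3342, 3646 and 3569 in the WT replicates (log2 fold change 0.21, standard error 0.044, limma adjusted p = 0.297). Rpl3 of the large subunit had a log2 fold change of 0.10 without overlap, and Rpl4 had 0.02 with overlapping values. Ribosomal protein genes have many processed pseudogenes that can share reads with them, so single members are uncertain.

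Of 76 nuclear genes of oxidative phosphorylation, 43 (56.6%) were higher without overlap and 0 lower, and the median log2 fold change was 0.12. Sdhb, the iron-sulfur subunit of complex II, had 4199, 4005 and 4141 in the HT and 3530, 3717 and 3631 in the WT replicates (log2 fold change 0.18, standard error 0.041, limma adjusted p = 0.297). The ATP synthase subunits Atp5b and Atp5a1 had overlapping values, with log2 fold changes of 0.05 and -0.02. The mitochondrial ribosome had 22 of 78 genes (28.2%) higher and 0 lower, with Mrpl13 at 928, 898 and 936 in the HT and 774, 748 and 781 in the WT replicates (log2 fold change 0.26). The proteasome had 13 of 31 (41.9%) higher and 0 lower, with Psmb1, a subunit of its core, at a log2 fold change of 0.16.

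Of the 13 protein genes of the mitochondrial genome, only mt-Co2 and mt-Atp6 were without overlap, although the median was 0.15. mt-Co1 had 901920, 823750 and 860500 in the HT and 743630, 872210 and 759480 in the WT replicates, with WT replicate 2 above 2 of the HT libraries. The spliceosome, another large RNA-protein machine, had 5 of 57 genes higher and 8 lower with a median of 0.01.

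**Figure D2:**
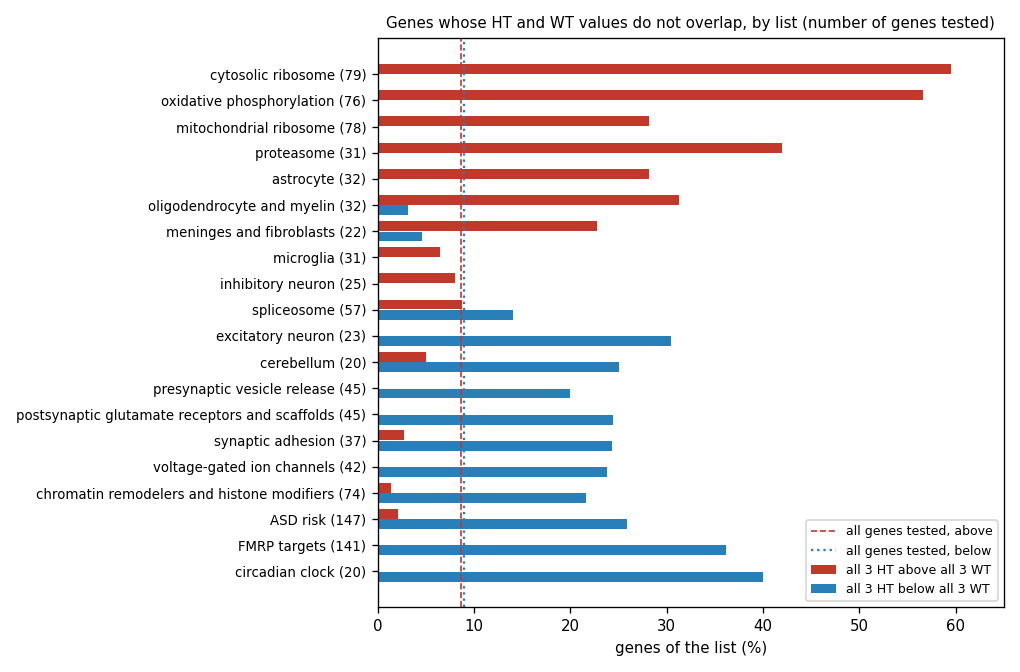
Share of the tested genes of 20 lists (horizontal axis, percent; number of genes in brackets) with all 3 HT values above (red) or below (blue) all 3 WT values in P80 females; vertical lines mark the 8.63% and 8.93% of all genes tested. The cytosolic ribosome (59.5%) and oxidative phosphorylation (56.6%) have the longest red bars, and the circadian clock (40%) and FMRP targets (36.2%) the longest blue bars.

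Groups of long synaptic and chromatin genes had the opposite sign. Of 141 targets of FMRP, the RNA-binding protein lost in fragile X syndrome, 51 (36.2%) were lower without overlap and 0 higher, and the median log2 fold change was -0.09. The axonal kinesin Kif5a, of this list, had overlapping values and a log2 fold change of 0.05.

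Of 147 autism risk genes, 38 (25.9%) were lower, 3 were higher and the median was -0.07. Phf21a, a reader of unmethylated histone H3, was among the 3 higher genes, with 1654, 1665 and 1622 in the HT and 1454, 1452 and 1495 in the WT replicates (log2 fold change 0.17). The neuronal scaffold Ank2 was among the 38 lower genes, with 31961, 32199 and 31555 in the HT and 33596, 33152 and 33147 in the WT replicates (-0.06). The FMRP and autism lists shared 37 tested genes, 26.2% of the first and 25.2% of the second, so they are not separate evidence. Other lists overlap with them too. Of the tested chromatin genes 22 of 74 (29.7%) are in the autism list, of which they make up 15.0%. The FMRP list holds 15 of 45 postsynaptic genes (33.3%, and 10.6% of the FMRP list), 11 of 42 channel genes (26.2% and 7.80%) and 7 of 45 presynaptic genes (15.6% and 4.96%).

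Ion channel, synapse and chromatin lists followed. Voltage-gated ion channels had 10 of 42 (23.8%) lower and 0 higher with a median of -0.09. Scn2b, an auxiliary subunit of sodium channels, had 8661, 8191 and 8433 in the HT and 9930, 9125 and 9710 in the WT replicates (log2 fold change -0.19, limma adjusted p = 0.297). Postsynaptic glutamate receptors and scaffolds had 11 of 45 (24.4%) lower, presynaptic release genes 9 of 45 (20%) and synaptic adhesion genes 9 of 37 (24.3%), with 1 adhesion gene, the latrophilin Adgrl3, higher. Nlgn2, the adhesion protein of inhibitory synapses, had 9337, 10010 and 9655 in the HT and 10815, 10686 and 10596 in the WT replicates (-0.15), and the synaptic vesicle protein Sv2a had -0.10. After quantile normalization, 4 of 45 presynaptic genes (8.89%), 6 of 45 postsynaptic genes (13.3%), 7 of 37 adhesion genes, 28 of 141 FMRP targets (19.9%) and 23 of 147 autism risk genes (15.6%) were lower, where all genes had 8.09% lower, so the presynaptic share was then near that of all genes. In the list of GABA and glycine synapses 1 of 26 genes was lower and 0 were higher.

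Chromatin remodelers and histone modifiers had 16 of 74 genes (21.6%) lower and 1 higher, with a median of -0.08. Arid1a, a subunit of the SWI/SNF remodeler, had 5238, 5115 and 5142 in the HT and 6071, 5862 and 5597 in the WT replicates (log2 fold change -0.18, standard error 0.041, limma adjusted p = 0.297). Chd3, a relative of Chd8 in the NuRD complex, had -0.11 with overlapping values, and Ctcf, which shapes chromatin loops, was higher without overlap (0.08).

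The circadian clock had 8 of 20 genes (40%) lower and 0 higher, with a median of -0.11. Without WT replicate 1 the median was -0.07, with 8 lower and 0 higher, where all genes had 12.8% lower. Adjusted for transcript length and base composition, 6 (30%) were lower and 0 higher with a median of -0.11, where all genes had 9.03% lower. Per1, a repressor within the clock that also responds to light and stress, had 4264, 3855 and 4532 in the HT and 5918, 4928 and 5143 in the WT replicates (log2 fold change -0.34, limma adjusted p = 0.297). The clock output factor Tef had -0.08 without overlap and Hlf -0.11 with overlapping values. The time of day of dissection is not in the sources used here. Immediate early genes, which respond to neuronal activity within minutes, had a median of -0.19 and differed among the HT libraries. Relative to the WT mean the list median was -0.179, -0.579 and 0.020 in HT replicates 1, 2 and 3. With all 6 libraries 1 of 25 genes was lower without overlap, against 14 of 25 without HT replicate 3 (median -0.32; all genes 13.8% lower) and 2 of 25 (8%) without HT replicate 2 (median -0.09; all genes 15.1% lower). Fos had 1666, 858 and 1691 in the HT and 1742, 1737 and 1824 in the WT replicates, and Arc had 7444, 4039 and 8869 in the HT against 8198 to 8444 in the WT replicates, with HT replicate 2 the lowest for both. Egr1 was also lowest in HT replicate 2 (5755, against 7970 to 10006 in the other libraries).

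**Figure D3:**
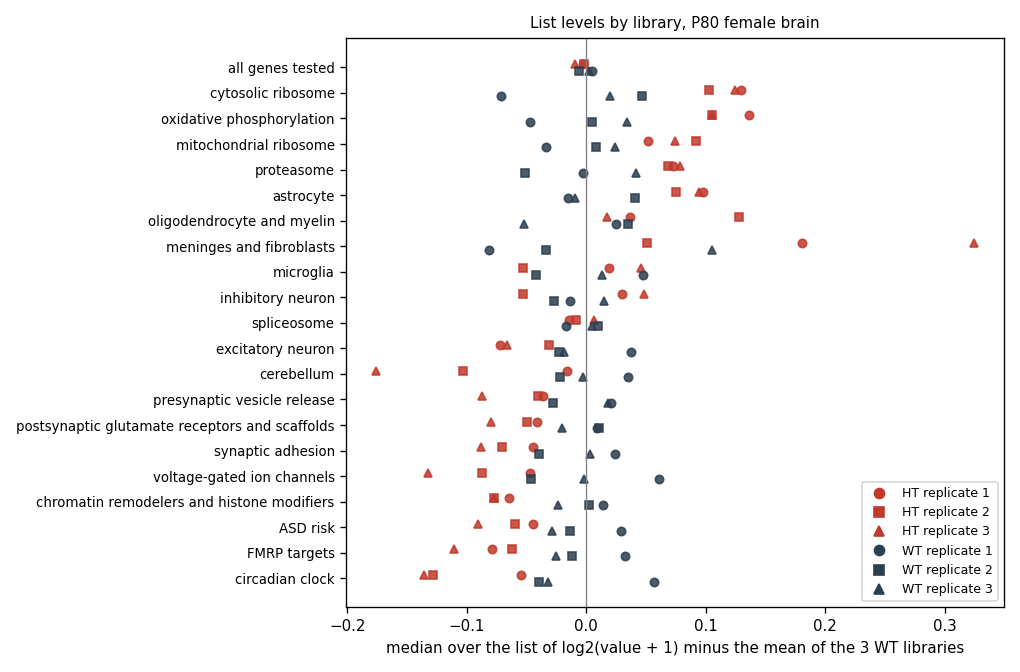
Median over each list of log2(value + 1) minus the mean of the 3 WT libraries (horizontal axis, log2 units), 1 point per library, red for HT and dark blue for WT, in P80 females. All 3 HT points lie above all 3 WT points for the cytosolic ribosome, oxidative phosphorylation, the mitochondrial ribosome, the proteasome and astrocytes, and all 3 lie below for the lists of FMRP targets, autism risk and chromatin genes.

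Per library, the median of the cytosolic ribosome list was 0.13, 0.103 and 0.125 in HT replicates 1, 2 and 3 and -0.072, 0.047 and 0.020 in WT replicates 1, 2 and 3, all relative to the WT mean. The pituitary hormone genes of HT replicate 1 were not above those of the WT libraries. The part of pituitary RNA in the list medians was not tested. Without WT replicate 1, the lowest library, the median log2 fold change of the ribosome list was 0.08. Of its 79 genes 48 were higher and 2 lower, where all genes had 12.5% and 12.8%. In the same setting the median was -0.045 for autism risk genes, with 42 of 147 lower and 5 higher. It was -0.06 for channels (10 of 42 lower, 0 higher) and -0.04 for synaptic adhesion (9 of 37 lower, 1 higher). With HT replicate 1 alone against the 3 WT libraries, 62 of 79 ribosome genes and 62 of 76 oxidative phosphorylation genes were above all WT values, and 80 of 141 FMRP targets were below them, where all genes had 26.9% above and 28.1% below.

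Astrocyte and myelin lists had more members higher in HT females than all genes, and the excitatory neuron list had more members lower, whereas microglia and inhibitory neurons had few either way. Of 32 astrocyte genes, 9 (28.1%) were higher without overlap and 0 lower, with a median of 0.08. Ntsr2, a neurotensin receptor of astrocytes, had 5935, 5907 and 5938 in the HT and 4600, 5083 and 5209 in the WT replicates (log2 fold change 0.26, standard error 0.049, limma adjusted p = 0.297). The glutamate transporter Slc1a2 and glutamine synthetase Glul, which had the highest values of the list, had overlapping values and log2 fold changes of 0.00 and 0.05. The summed value of the astrocyte list was 378830, 368330 and 389880 in the HT and 353790, 365220 and 350660 in the WT replicates.

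Of 32 oligodendrocyte and myelin genes, 10 (31.3%) were higher and 1 was lower, with a median of 0.03. Without HT replicate 2 they were 10 (31.3%) and 4 (12.5%), with a median of -0.002, where all genes had 13.9% higher and 15.1% lower. Once values were adjusted for transcript length and base composition they were 5 (15.6%) and 0, where all genes had 6.84% and 9.03%. Bcas1, a marker of newly formed oligodendrocytes, had 7711, 7044 and 8101 in the HT and 6265, 6646 and 5833 in the WT replicates (log2 fold change 0.29, standard error 0.061, limma adjusted p = 0.297). Mbp, the myelin basic protein and the gene with the highest value of the list, had 149920, 150450 and 145270 in the HT and 129300, 143950 and 124280 in the WT replicates (0.17, adjusted p = 0.341). The lineage factor Sox10 was the member that was lower without overlap (-0.09). The summed value of the list was 391780, 400450 and 392320 in the HT and 366310, 384800 and 345350 in the WT replicates, with every HT library above every WT library, and Mbp was its largest member. The list medians relative to the WT mean overlapped, with 0.037, 0.128 and 0.017 in the HT and 0.025, 0.035 and -0.052 in the WT replicates. Among 18 oligodendrocyte precursor genes 2 were higher and 3 lower, with the sialidase Neu4 at 315, 342 and 324 in the HT and 439, 433 and 398 in the WT replicates (-0.37).

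Excitatory neuron genes had 7 of 23 (30.4%) lower and 0 higher with a median of -0.04. The summed values of the list overlapped, with 188470, 192860 and 192320 in the HT and 195420, 196570 and 190630 in the WT replicates. Cux2, a factor of upper-layer cortical neurons, had 2721, 2745 and 2492 in the HT and 3518, 3230 and 2947 in the WT replicates (log2 fold change -0.28). Inhibitory neuron genes had 2 of 25 higher and 0 lower, and microglia 2 of 31 higher and 0 lower. Cerebellar genes had 5 of 20 lower and 1 higher with a median of -0.12. Without HT replicate 3 they had 5 lower and 3 higher with a median of -0.06, where all genes had 13.8% lower and 13.1% higher. Adjusted for transcript length and base composition, 5 were lower and 1 higher with a median of -0.06, where all genes had 9.03% and 6.84%. Barhl1, a granule cell factor, had 112, 128 and 130 in the HT and 172, 193 and 218 in the WT replicates (-0.65, limma adjusted p = 0.297), whereas Itpr1, a calcium channel of Purkinje cells, had overlapping values (-0.20). The summed value of the cerebellar list was 95390, 86613 and 81211 in the HT and 98878, 92245 and 95732 in the WT replicates, with HT replicate 3 the lowest, and the part of the share of cerebellum in these results was not tested.

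Genes of the meninges and fibroblasts had 5 of 22 (22.7%) higher and 1 lower, with a median of 0.17. Ptgds, the prostaglandin D synthase of the leptomeninges and choroid plexus, had 29891, 28010 and 28487 in the HT and 24445, 26235 and 26453 in the WT replicates (log2 fold change 0.16, limma adjusted p = 0.306). Igf2, a growth factor from the same tissues, had 2535, 2837 and 2985 in the HT and 2467, 2409 and 2238 in the WT replicates (0.23). HT replicate 3 had the highest list median (0.324), and without it 6 of 22 were higher with a median log2 fold change of 0.11 (all genes 13.1% higher). Without HT replicate 2, 13 of 22 (59.1%) were higher with a median of 0.27 (all genes 13.9% higher). Bgn, a proteoglycan of the extracellular matrix, was higher without overlap (0.32). It was among the 8 of 56 matrix genes (14.3%) that were higher, and 2 were lower, with a median of 0.07. Without HT replicate 3, 11 matrix genes (19.6%) were higher and 4 lower with a median of 0.02, where all genes had 13.1% and 13.8%.

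Markers of the hindbrain and spinal cord differed between libraries within both genotypes. Their list median was 0.374, 0.526 and -0.963 in HT replicates 1, 2 and 3 and 0.295, -0.496 and 0.344 in WT replicates 1, 2 and 3. HT replicate 3 and WT replicate 2 were thus the low libraries, 1 of each genotype, and 0 of 18 genes were without overlap. Without HT replicate 3, 6 of 18 (33.3%) were higher and 0 lower, with a median log2 fold change of 0.48. All genes then had 13.1% higher and 13.8% lower. Without HT replicate 2, 0 were higher and 1 was lower, with a median of -0.24, where all genes had 13.9% and 15.1%. All of the brain cell type lists were detected, with none of their genes in the table at 0 in all 6 libraries.

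The differences ran along transcript length. In the shortest of 10 bins of genes by mean transcript length (168 to 872 bases), the median log2 fold change was 0.077, with 19.0% of genes higher and 3.8% lower without overlap. In the longest bin (3708 bases or more) it was -0.059, with 2.81% higher and 16.2% lower. The 3 HT libraries all had positive medians in the shortest bin (0.068, 0.070 and 0.094) and negative ones in the longest (-0.037, -0.061 and -0.071). WT replicate 1 stood on the opposite side, with -0.039 in the shortest and 0.035 in the longest bin, and the other WT replicates lay between.

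**Figure D4:**
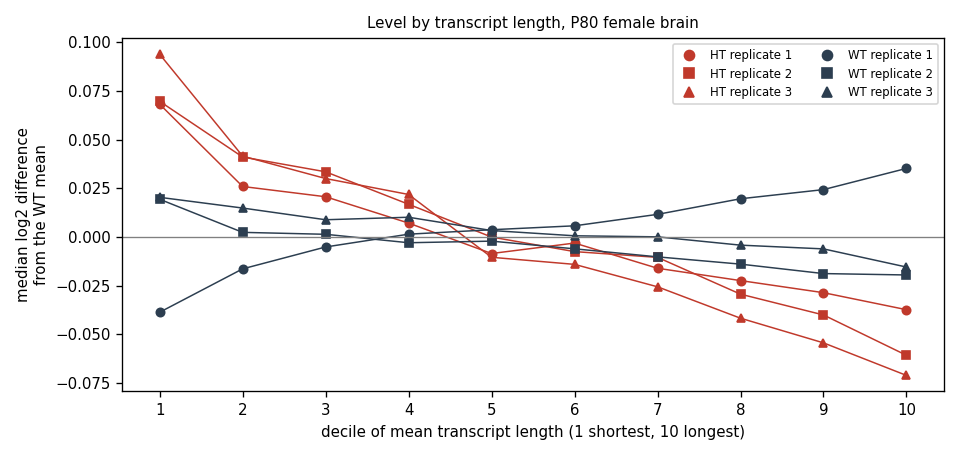
Median log2 difference from the WT mean (vertical axis) over genes in 10 bins of mean transcript length (horizontal axis, 1 shortest to 10 longest), 1 line per library in P80 females. The 3 HT lines fall from between 0.068 and 0.094 in the shortest bin to between -0.037 and -0.071 in the longest, whereas WT replicate 1 runs from -0.039 to 0.035.

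The lists differ in length in the same way. The median transcript length was 701 bases for the cytosolic ribosome and 772 for oxidative phosphorylation, 3457 for FMRP targets and 3021 for autism risk genes, and 1830 over all genes tested. After a correction of each library for transcript length and GC content, the median log2 fold change was 0.05 for the ribosome, 0.05 for oxidative phosphorylation, -0.05 for FMRP targets and -0.04 for autism risk genes, where all genes had -0.01. The counts without overlap became 16 higher and 2 lower of 79 ribosome genes, 19 and 0 of 76 oxidative phosphorylation genes, 2 and 31 of 141 FMRP targets, and 3 and 24 of 147 autism risk genes, where all genes had 6.84% higher and 9.03% lower. For the proteasome they became 7 higher and 1 lower of 31, with a median of 0.02, and for the mitochondrial ribosome 10 higher and 1 lower of 78, with a median of 0.03. Presynaptic genes had 6 of 45 and postsynaptic genes 9 of 45 lower. Counts moved less in some lists. The correction left 17 of 74 chromatin, 9 of 42 channel and 7 of 23 excitatory neuron genes lower, against 16, 10 and 7 before. Astrocytes had 8 of 32 genes higher with a median of 0.06. Medians moved from -0.09 to -0.05 for channels, from -0.04 to -0.03 for excitatory neurons and from -0.08 to -0.06 for chromatin genes. Synaptic adhesion went from 9 to 6 of 37 genes lower. Length and list cannot be told apart where nearly all members of a list are short or long.

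The same lists stood near 0 in the other comparisons, with other mice. In P80 males the median log2 fold change was 0.02 for the ribosome, 0.00 for oxidative phosphorylation, -0.01 for FMRP targets and -0.02 for autism risk genes. In P25 females it was 0.02, 0.03, -0.01 and -0.01. As the sex interaction passed for no gene and no list was tested for it, these values are set side by side without a claim that they differ.

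Pituitary genes are marked apart because their difference lies between libraries of the HT group. By the rule of more than 4-fold above the highest of the other 4 libraries in both HT replicates 2 and 3, 9 genes stood out, Prl, Gh, Pomc, Tshb, Cga, Lhb, Ghrhr, Pitx1 and Gm20708. The hormone list summed to 150 in HT replicate 1, 64979 in HT replicate 2 and 26627 in HT replicate 3, and to 192, 243 and 196 in the WT replicates. Pomc, the precursor of corticotropin, had 68.2, 969 and 2547 in the HT and 60.3, 139 and 70.3 in the WT replicates. Cga, the subunit common to the glycoprotein hormones, had 1.36, 663 and 285 in the HT and 6.86, 6.84 and 5.66 in the WT replicates, and Tshb, of thyrotropin, 60.9, 516 and 402 in the HT and 65.2, 46.8 and 59.2 in the WT replicates.

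HT replicate 2 had more Prl, Gh and Cga than HT replicate 3, which had more Pomc and Pitx1, the latter a pituitary factor with 3.68, 28.5 and 46.3 in the HT replicates and 3.32 to 4.49 in the WT replicates. Lhb had 0, 136.6 and 51.2 in the HT and 0, 0 and 1.92 in the WT replicates, and Ghrhr, the receptor that drives growth hormone cells, had 1.63, 63.7 and 21.8 in the HT replicates and was listed at 0 in the WT replicates. Pitx1 and Ghrhr belong to a list of pituitary lineage and receptor genes, of which 1 of 29 was higher without overlap and 0 lower, with 8 negative log2 fold changes and a median of 0.06. None of the 9 passed the adjusted p with all libraries in the fit (limma, Prl adjusted p = 0.419). Without HT replicate 1, the number of genes past the adjusted p was 14, and Cga, Gh, Lhb, Pomc, Prl and Tshb were among them. With the 9 genes left out of the fit, the count of genes past the adjusted p was again 7. With the level of the hormone genes as a covariate the count was 5, and 2 of the 7 genes, Gm16867 and Gm47924, were among them.

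HT replicate 3 stood apart in more genes than any other library. In it 121 genes were more than 2-fold above the highest of the other 5 libraries, against 10 to 21 genes in each of the others. Many were genes of the nasal mucosa, such as Scgb1c1 at 925 against at most 8.99, Cyp2a5 at 2281 against at most 158, Cyp2g1 at 922 against at most 79.4 and Bpifb3 at 1283 against at most 16.7. The sum of a list of 15 nasal and olfactory mucosa genes was 12015 in this library and 439 to 1050 in the others. Over the 6 libraries together its highest gene was Omp, the marker of mature olfactory neurons, and in HT replicate 3 Cyp2a5 was above it. Bone matrix genes such as Ibsp (73.4 against at most 5.01) and Col1a1 (1997 against at most 519) were also above the others there. Hbb-bs, an adult beta-globin, had 4154, 3573 and 8580 in the HT and 2613, 3924 and 3331 in the WT replicates.

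**Figure D5:**
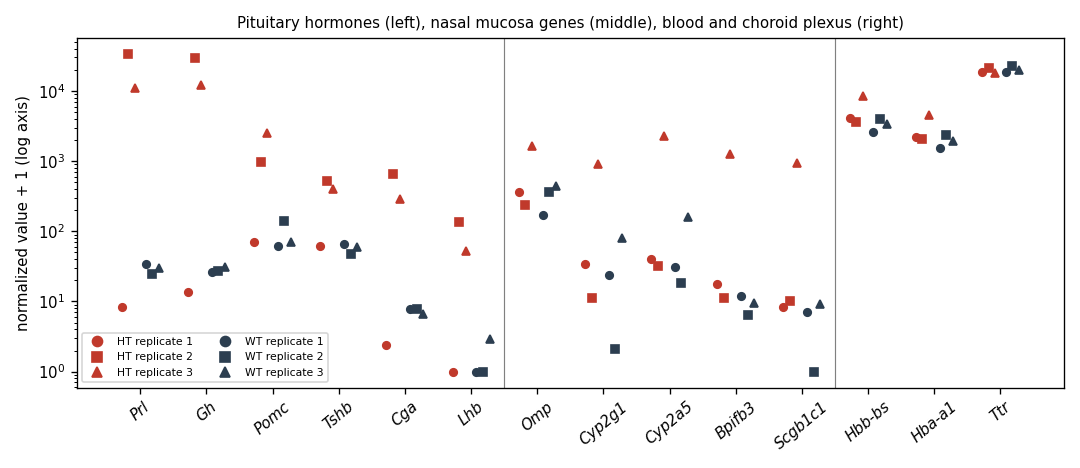
Normalized value + 1 (vertical axis, log scale) of pituitary hormone genes (left), nasal mucosa genes (middle) and globin and choroid plexus genes (right) in each P80 female library, red for HT and dark blue for WT. HT replicates 2 and 3 are above the other libraries for all 6 hormone genes, and HT replicate 3 alone is high for the nasal genes and the globins.

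Without HT replicate 3, the ribosome list had 49 of 79 and oxidative phosphorylation 52 of 76 genes higher, with 0 lower, where all genes had 13.1% higher and 13.8% lower. Of the 7 genes, only Gm47924 passed the adjusted p without HT replicate 3 and without each WT replicate. Its p is not a fair test, as its WT values are all 0. None of the 7 passed without HT replicate 2, with 1924 genes at an unadjusted p under 0.05 in limma. Without HT replicate 1, 6 of the 7 passed and Mon2 did not. The log2 fold changes moved little, from -0.35 to -0.34 for Usp11 and from -0.45 to -0.39 for Entpd4 with a library left out.

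Genes next to Chd8 were checked, since the mutant chromosome was carried through breeding. Within 1 Mb of Chd8 16 genes were tested and 0 passed the adjusted p in limma (smallest 0.386). Of these 16 genes 3 were higher and 2 were lower without overlap, where all genes tested had 8.63% higher and 8.93% lower. Of the 7 genes, 3 (Chd8, Entpd4 and Gm16867) lie on chromosome 14, where 658 of the 18167 genes tested lie. Entpd4 and Gm16867 overlap each other, 17079394 and 17105724 bases from Chd8, and so are 1 locus.

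Lists of pathways that CHD8 is known to restrain were counted too. Of 53 genes of the Wnt and beta-catenin pathway 4 were higher and 4 lower, with a median of 0.01. Of 26 p53 targets 5 (19.2%) were higher and 1 lower, with 18 positive log2 fold changes and a median of 0.07, among them Rrm2b, a p53-induced subunit of ribonucleotide reductase, with 1427, 1384 and 1406 in the HT and 1215, 1213 and 1155 in the WT replicates (log2 fold change 0.24, limma adjusted p = 0.297). Plk2, a stress-induced kinase and the p53 target that was lower, had 3458, 3422 and 3604 in the HT and 4077, 3650 and 4022 in the WT replicates (-0.16, adjusted p = 0.332). Without HT replicate 3, 6 of the 26 (23.1%) were higher and 4 (15.4%) lower, with a median of 0.04, where all genes had 13.1% and 13.8%. Xist, the RNA that silences 1 X chromosome in females, had 36328, 32912 and 33207 in the HT and 39657, 40211 and 36342 in the WT replicates, so that all 6 libraries carried it, with a log2 fold change of -0.18 (adjusted p = 0.314).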

How the data were processed

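Brain RNA was prepared with a TruSeq RNA Sample Prep Kit v2, which does not mark strand, and sequenced as paired ends on an Illumina instrument. By the submitters' processing notes the authors used Salmon 1.1.0 on GRCm38, R 3.6.2 and DESeq2 1.26.0. The deposited signal is 1 table of DESeq2-normalized values per gene for 36 libraries, not counts, so a count model was not used and counting error is unknown. The gene annotation release is not given in the sources used here, and 29747 of 29799 gene identifiers were placed with GENCODE M21.

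Tests used log2(value + 1) of genes whose mean reached 10 in the fitted libraries, with limma 3.58.1 (R 4.3.3, trended prior, two-sided, Benjamini-Hochberg over all genes tested, threshold 0.05), a test checked on simulated data. The fold changes are on the log2(value + 1) scale, which understates low genes. Nothing says whether mice of a group shared a litter, and p-values measure the spread between these mice.

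Genes named are Chd8, those past the adjusted p, the 10 highest ranked in each direction (mean at least 100, no overlap, without predicted and pituitary genes), and from each of 42 lists the 2 with the highest mean and the leading member in each direction. The rule gave 202 genes, 190 of them tested, and the text names only those of the lists it describes, and some named genes are not reported here. Genes named under nasal mucosa, bone matrix and settings lie outside it and were chosen after their values were seen. Members and lists were chosen with earlier results of these data known. The nasal list and the correction by transcript length and GC content (a spline fit in each library, 4 degrees of freedom a term) were chosen after seeing the data.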

Additional observations from a re-analysis of the deposited data

Results flagged for a closer look

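Of the results, 2 differed between ages by the test of the difference itself. The age by genotype interaction in females passed for Mon2 (limma adjusted p = 0.0432), which was lower in all 3 HT mice at P80 and higher in all 3 HT mice at P25, each against all 3 WT mice of that age. It also passed for Gm47924 (limma adjusted p = 0.0432), which was listed at 0 in all 6 females at P25 and in the 3 WT females at P80 and had 48.1 to 92.9 in the HT females at P80. With 0 in 9 of its 12 libraries and entry to the test only through the HT females at P80, the p of Gm47924 is not a fair test. Of the 12 fits without 1 library, Mon2 passed in 1 and Gm47924 in 0, and both calls were lost with 1 model of 36 libraries, median of ratios scaling, a minimum mean of 100, a pseudocount of 0.1, quantile normalization, the replicate block and without P80 HT replicates 2 and 3.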

How the results depend on the processing

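The 7 genes past the adjusted p became 1 in a single model of all 36 libraries, 3 without HT replicates 2 and 3 together (HT replicate 1 is then assumed to vary like the WT libraries) and 0 to 14 with a library left out, where the count was 14, 0 and 2 without HT replicates 1, 2 and 3 and 4, 1 and 1 without WT replicates 1, 2 and 3. It was 5 to 10 under the other settings. With the replicate number as a block it was 3, and 2 of the 7 (Gm16867 and Gm47924) were among them. Deviations of HT and WT libraries of the same number correlated at -0.0252, 0.0717 and 0.055, and those of different numbers at -0.0961 to 0.026. With 3 libraries in each group these values cannot tell whether the numbers pair the mice. The sex interaction count was 0 to 2 with a library left out (main 0). The age interaction count (main 2) was 0 in the model of 36 libraries, with median-of-ratios scaling, a minimum mean of 100, a pseudocount of 0.1, quantile normalization or the replicate block, 1 (another gene) without HT replicates 2 and 3, and 0 to 2 with a library left out, where Mon2 was called in 1 fit, Gm47924 in 0 and the other calls were Gm10288, Rps27rt, Prl, Tshb and Gm14303. The cause was not tested.

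The log2 fold change of Chd8 lost its call at 0.361 in the 36-library model, with no filter and with the block, at 0.374 with the length and GC correction, 0.314 with the pituitary covariate and 0.306 without HT replicates 2 and 3. It was 0.330 to 0.391 with a library left out. Genes without overlap numbered 9995 without HT replicates 2 and 3 and 4586 to 5395 with a library left out, where fewer libraries leave fewer chances to overlap.

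Among single genes, signs turned for values near 0 and for pituitary genes. Rpl4 (-0.0354), Atp5b (-0.00485) and Slc1a2 (-0.00711) turned with the length and GC correction, with or without the replicate block. Slc1a2 turned with the pituitary covariate (-0.00836), quantile normalization (-0.0106) and without HT replicates 2 and 3 (-0.0192), and Atp5a1 with quantile normalization (0.0165). With a library left out, Rpl4 ran from -0.00687 to 0.033, Atp5b from -0.00796 to 0.116 and Slc1a2 from -0.0452 to 0.0419. The pituitary genes turned with the covariate (Prl -0.573, Cga -0.805) and without HT replicates 2 and 3 (Prl -1.84, Gh -1.04, Pomc -0.294). The covariate is the mean level of the hormone genes, Prl and Cga among them, so the loss of their difference with it is built in.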

Other observations

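Other cell types and tissues in the 6 female libraries at P80 varied in their shares of members without overlap between HT and WT mice. Endothelial genes had 5 of 24 higher (20.8%) and 2 lower, striatal projection neurons 0 higher and 4 of 16 lower (25%), and hypothalamic neuropeptides 2 of 19 higher and 0 lower, against 8.63% higher and 8.93% lower over all genes. Without HT replicate 3, endothelial genes had 5 higher (20.8%) and 6 lower (25%), against 13.1% and 13.8% over all genes. The choroid plexus, ependyma and thalamus each had 1 gene higher, of 21, 16 and 16, and the thalamus also had 1 lower. Without HT replicate 2, the choroid plexus had 2 of 21 higher and 5 lower (23.8%), where all genes had 13.9% and 15.1%. Its median log2 fold change was then -0.16, against -0.08 with all 6 libraries. Olfactory bulb and neurogenic zone genes had 1 of 20 lower. Genes of the glucocorticoid response had 3 of 16 higher (18.8%) and 1 lower.

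Genes of blood had no member of 11 without overlap, although their median log2 fold change was 0.51. Their list median was 1.24 in HT replicate 3 and ran from -0.166 to 0.306 in the other 5 libraries. Cst3, a protease inhibitor of microglia and astrocytes, had 26950, 26986 and 35160 in the HT and 22688, 26894 and 24908 in the WT replicates, so that HT replicate 3 was again the highest, and its log2 fold change of 0.25 did not pass the test (limma adjusted p = 0.400).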
